A study of Mus musculus with 24 samples.

Results

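Glutathione S-transferases (Gst), UDP-glucuronosyltransferases (Ugt) and cytosolic sulfotransferases (Sult) are the conjugating enzymes of drug and steroid metabolism, and their transcripts were followed here in 2 neighbouring parts of the mouse distal nephron around the day. Members were all genes whose symbol matches the family names (Gst of the alpha, kappa, mu, omega, pi, theta and zeta classes, Ugt and Sult, each with its class letter and number) and that are named by a probe set carrying 1 gene symbol. These were 43 of the 18194 genes measured, namely 20 Gst, 10 Ugt and 13 Sult genes, each represented by its brightest probe set, averaged over the 24 arrays. Of the reference genes, 61 match the rule. The other 18, which include the Ugt1a genes, had no probe set of their own and were not analysed as members.

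The study hybridized 24 arrays with RNA from tubules that were microdissected from collagenase-treated left kidneys of untreated male C57BL/6J mice, a standard inbred strain. Of these, 12 arrays held distal convoluted and connecting tubules in 1 sample (DCT/CNT) and 12 held cortical collecting ducts (CCD). Lights were on for 12 h of each day, and mice were killed at zeitgeber times (ZT, hours after lights on) 0, 4, 8, 12, 16 and 20, with 2 pools per segment and time. Each time had equal amounts of RNA from 5 animals, and the labels do not say whether the pools of a time, or the segments, came from the same animals, so p-values measure the spread between pools only.

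Glutathione S-transferases join the tripeptide glutathione to electrophiles such as lipid peroxidation products. UDP-glucuronosyltransferases of the endoplasmic reticulum transfer glucuronic acid from UDP-glucuronate, and cytosolic sulfotransferases transfer sulfate from PAPS, both to hydroxyl groups of steroids, bile acids, phenols and drugs. In the kidney most of this metabolism is known from the proximal tubule, and in liver several of these genes are under control of the nuclear factor NRF2 and of the clock-driven PAR bZIP factors DBP, TEF and HLF.

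The promoters are shown because the 8 Ugt2 genes printed here neighbour one another on chromosome 5, and because letters resembling binding motifs recur in them at like distances from the start. Sequences are from RefSeq (GRCm38.p6), 5′ to 3′, and were found for 38 of the 43 members. The 60 bases before the annotated start of each Ugt2 member follow, searched on both strands. Capitals mark TTANNTAA, AGGTCA (the core of ROR and other nuclear receptor motifs) and GTTAAT (part of the HNF1 motif). TTANNTAA is wider than the PAR bZIP core TTAYGTAA (Y for C or T), since its middle letters are free. TTANNTAA and GTTAAT share letters and can overlap.
Ugt2a3 (chr5:87337196-87337255, minus strand): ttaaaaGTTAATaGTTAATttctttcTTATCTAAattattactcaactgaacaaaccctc
Ugt2b1 (chr5:86926504-86926563, minus strand): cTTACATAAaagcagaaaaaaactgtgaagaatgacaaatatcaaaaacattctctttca
Ugt2b34 (chr5:86906938-86906997, minus strand): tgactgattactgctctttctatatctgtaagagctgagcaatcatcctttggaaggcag
Ugt2b35 (chr5:87000800-87000859, plus strand): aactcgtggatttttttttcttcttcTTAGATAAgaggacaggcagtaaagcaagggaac
Ugt2b36 (chr5:87092556-87092615, minus strand): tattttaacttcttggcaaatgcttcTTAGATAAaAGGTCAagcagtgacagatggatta
Ugt2b37 (chr5:87254789-87254848, minus strand): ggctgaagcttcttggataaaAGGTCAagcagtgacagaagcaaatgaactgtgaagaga
Ugt2b38 (chr5:87424204-87424263, minus strand): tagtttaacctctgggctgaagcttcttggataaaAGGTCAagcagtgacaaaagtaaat
Ugt2b5 (chr5:87140341-87140400, minus strand): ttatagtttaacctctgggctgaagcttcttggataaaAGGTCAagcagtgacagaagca
Ugt2b35, Ugt2b36 and Ugt2a3 hold a match to TTANNTAA from 34 to 27 bases before the start, and Ugt2b1 from 59 to 52. Only the Ugt2b1 match, TTACATAA, holds the narrower TTAYGTAA, on the other strand. Ugt2b36, Ugt2b38, Ugt2b5 and Ugt2b37 hold AGGTCA, in Ugt2b36 and Ugt2b38 from 25 to 20 bases before the start, in Ugt2b5 from 22 to 17 and in Ugt2b37 from 39 to 34. Ugt2b34 holds none of these letters in this stretch.

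The 38 members had 49 promoters, since some genes have several starts. Over the 250 bases before the start, TTANNTAA occurred in 6 of these 49 (the 4 Ugt2 genes, Sult1a1 and Gsta3, 1 each) and in 5.43% of all 32851 mouse promoters. AGGTCA occurred in 9 of the 49 (14.0% of all promoters) and GTTAAT in 5 (6.43%). TGACNNNGC, the core of the antioxidant response element bound by NRF2, occurred in 3 of the 49 (10.2%), those of Gsta3, Gstm5 and Gstm7. CACGTG, the E-box of the clock activator, occurred in 0 (6.02%). A match of this kind is a description of letters. The 250 bases of Sult1a1 and Gsta3 are printed as the members outside the Ugt family with TTANNTAA, with TTANNTAA and TGACNNNGC in capitals. Both stretches reach into the annotated span of their gene, chr7:126672865-126690443 for Sult1a1 and from chr1:21240565 for Gsta3. That of Sult1a1 lies wholly inside the gene, before an internal start.
Sult1a1 (chr7:126676419-126676668, minus strand): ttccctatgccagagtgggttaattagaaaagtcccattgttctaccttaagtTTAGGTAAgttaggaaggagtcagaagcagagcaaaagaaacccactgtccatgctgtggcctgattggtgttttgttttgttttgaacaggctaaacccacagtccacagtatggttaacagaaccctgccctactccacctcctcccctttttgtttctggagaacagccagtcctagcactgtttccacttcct
Gsta3 (chr1:21240335-21240584, plus strand): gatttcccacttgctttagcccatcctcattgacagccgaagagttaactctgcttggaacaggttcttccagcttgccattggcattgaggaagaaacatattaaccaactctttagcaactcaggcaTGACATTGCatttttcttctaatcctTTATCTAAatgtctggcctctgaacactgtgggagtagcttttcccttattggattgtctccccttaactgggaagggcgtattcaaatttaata

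Values are the authors' RMA values on the log2 scale. Differences between segments are DCT/CNT minus CCD in log2 units, taken relative to the median gene, which was 0.13 lower in DCT/CNT, and are called at an adjusted p under 0.05 with limma. A member is said to be near background in a segment where its mean lies under the 95th percentile of 39 olfactory receptor genes, equal to 5.47 in DCT/CNT and to 4.94 in CCD. The spread of values within an array was narrower in DCT/CNT (interquartile range 3.32 to 3.65) than in CCD (4.08 to 4.28). The dissected segments carried their defining markers, since 11 of 12 DCT and CNT markers were higher in DCT/CNT and 11 of 12 principal cell markers lower. Of 11 intercalated cell markers 2 were higher and 8 lower in DCT/CNT (median -0.43). Markers of the proximal tubule were also present, with a mean of 21 genes between 7.10 and 8.65 in DCT/CNT arrays and between 7.21 and 8.73 in CCD arrays. Of 9 thick ascending limb markers 6 were higher in DCT/CNT and 1 lower (median 0.86; Egf 2.05, Umod 1.44, Ptger3 1.38), with a mean between 6.47 and 7.74 in DCT/CNT arrays and between 5.72 and 7.22 in CCD arrays. Of 18 vascular, stromal and leukocyte markers 8 were higher and 3 lower (median 0.14), among them the smooth muscle genes Myh11 (1.95) and Acta2 (1.56), with a mean between 7.07 and 7.38 in DCT/CNT arrays and between 6.83 and 7.23 in CCD arrays. The part of these cells in the segment differences was not tested.

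Most members differed between the segments, and the families were divided among themselves. Of the 43, 36 were called, 22 higher and 14 lower in DCT/CNT, while among all genes 77.3% were called, 38.5% higher and 38.9% lower. The members' share is near that background. Of the 20 Gst genes 6 were higher and 11 lower, of the 13 Sult genes 8 were higher and 3 lower, and of the 10 Ugt genes 8 were higher and 0 lower, while after quantile normalization the counts were 5 and 9, 5 and 4, and 3 and 0. The arrays of both segments did not overlap for 15 members, 6 higher and 9 lower, where 27.8% of all genes did not overlap. The median difference was -0.16 for Gst, 0.27 for Sult and 0.48 for Ugt genes, and 0.00 over all genes.

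Whether a member was near background went along with its direction. Of the 23 members above background in both segments, 7 were higher and 13 lower in DCT/CNT, and of all 12113 genes of this kind 23.1% were higher and 53.4% lower. Of the 16 members near background in both segments, 13 were called higher and 0 lower, and of all 4891 genes near background in both segments 76.4% were higher and 4.5% lower. After quantile normalization 3 of these 16 members were higher and 2 lower, and after cyclic loess 4 were higher and 6 lower. The narrower spread of values in DCT/CNT moves with this result, and its part in it was not tested.

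**Figure D1:**
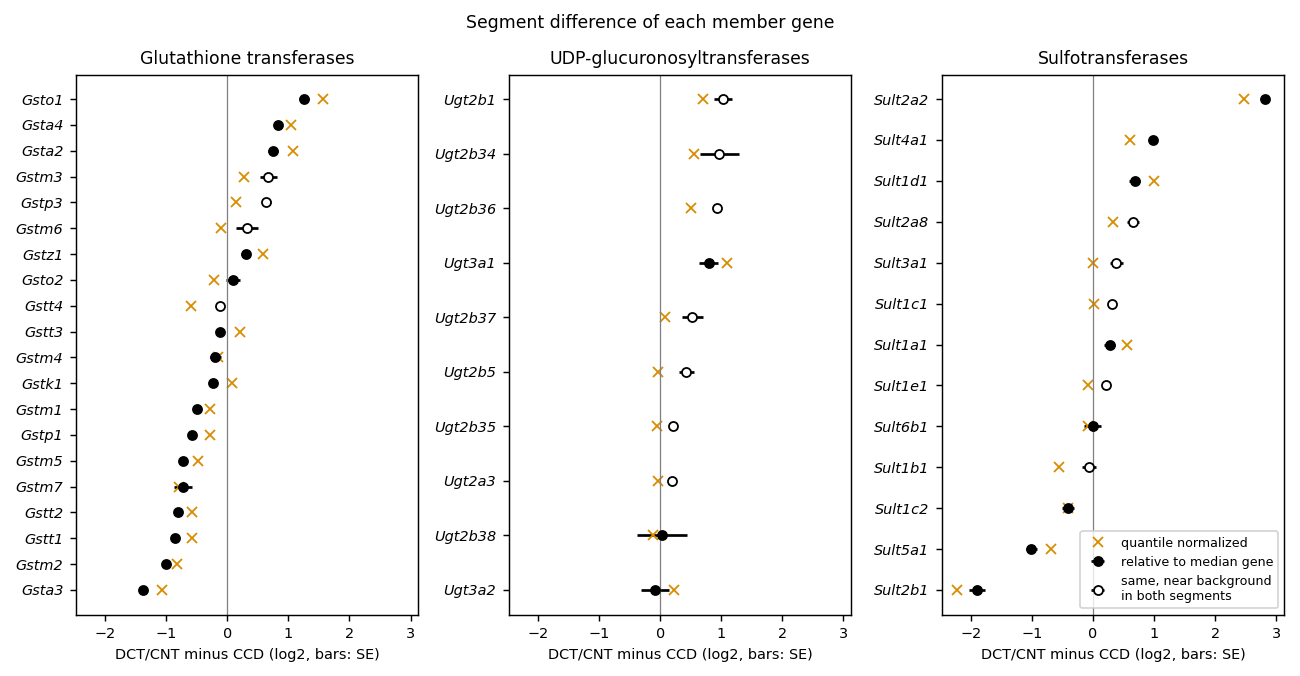
Difference between DCT/CNT and CCD (log2 units, x axis) for each of the 43 members by family, as points with standard errors relative to the median gene and as crosses after quantile normalization. Open points are the 16 members near background in both segments. Of the Ugt genes, 7 of 10 are open points, while most filled points of the Gst panel lie below 0.

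The alpha-class glutathione transferases split in opposite directions. Gsta3 had a lowest, median and highest value of 9.24, 9.46 and 9.87 in DCT/CNT, against 10.65, 10.95 and 11.26 in CCD. No DCT/CNT array reached any CCD array, and Gsta3 was lower by 1.38 (difference -1.38, SE 0.07, adjusted p = 6.93e-14), with its other probe set at -1.85. Gsta4, whose enzyme is known for conjugating the lipid peroxidation product 4-hydroxynonenal, had 11.70, 11.94 and 12.13 in DCT/CNT, against 10.94, 11.23 and 11.45 in CCD. All 12 DCT/CNT arrays lay above the 12 CCD arrays (difference 0.83, SE 0.04, adjusted p = 1.80e-13, 1.77-fold). Gsta2 had 9.61, 10.19 and 10.35 in DCT/CNT and 8.77, 9.49 and 10.01 in CCD, and was higher by 0.75 (SE 0.08) with overlapping arrays.

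Mu-class genes, which lie side by side on chromosome 3, were mostly lower in DCT/CNT. Of the 7 members 5 were lower, 1 higher and 1 not called. The 5 lower ones were above background in both segments, where 53.4% of all genes were lower and 23.1% higher. Gstm3 and Gstm6 were near background in both, where 76.4% of all genes were higher. Gstm2 had 11.15, 11.43 and 11.70 in DCT/CNT, against 12.49, 12.58 and 12.63 in CCD. The arrays did not overlap, and the level in DCT/CNT was 0.50 of that in CCD (difference -0.996, SE 0.03, adjusted p = 3.73e-16). Gstm1 had 11.10, 11.35 and 11.52 in DCT/CNT, against 11.76, 11.89 and 12.19 in CCD, again without overlap (difference -0.50, SE 0.04). Gstm5 had 6.95, 7.28 and 7.54 in DCT/CNT and 7.89, 8.15 and 8.31 in CCD, also without overlap (difference -0.72, SE 0.06). Gstm7 was lower by as much (difference -0.72, SE 0.15), with overlapping arrays from 5.28 to 6.52 in DCT/CNT and from 5.86 to 7.57 in CCD. Gstm4 was lower by a small step (difference -0.20, SE 0.09, adjusted p = 0.0492) and was not called after quantile normalization (adjusted p = 0.133).

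Probe sets of the mu class did not all point the same way. For Gstm1, 3 probe sets gave differences from -0.50 to -0.68, while the dimmest one, with means of 3.78 in DCT/CNT and 3.38 in CCD, gave 0.53. For Gstm7 the dimmer probe set, with means of 4.23 and 4.08, gave 0.27 against -0.72 for the brighter one. Both dim probe sets were near background and were called higher. Gstm3, near background in both segments, was called higher (0.67, SE 0.14), while its other probe set was not (0.15, adjusted p = 0.145), nor was the gene after quantile normalization (0.27, adjusted p = 0.115) or cyclic loess (0.27, adjusted p = 0.0764). Gstm6 was not called (difference 0.33, adjusted p = 0.102). Mu-class genes resemble one another closely, so a probe set may also take up transcripts of its neighbours.

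The theta class was lower in DCT/CNT for the members well above background. Gstt1 had 10.38, 10.58 and 10.74 in DCT/CNT and 11.42, 11.54 and 11.68 in CCD, and Gstt2 had 7.10, 7.30 and 7.50 in DCT/CNT and 7.84, 8.23 and 8.47 in CCD. Neither gene's arrays overlapped, with differences of -0.85 (SE 0.04, adjusted p = 1.75e-14) and -0.81 (SE 0.06, adjusted p = 5.20e-11). Gstt3 was called lower by a small amount (-0.12, adjusted p = 0.0311), but was called higher after quantile normalization (0.21) and cyclic loess (0.24). Gstt4, near background, was not called (-0.11), but was called lower after quantile normalization (-0.60) and cyclic loess (-0.53).

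Among the other classes the omega gene Gsto1 stood highest relative to CCD. Gsto1, whose enzyme reduces dehydroascorbate and methylated arsenic, had 9.78, 9.94 and 10.38 in DCT/CNT, against 8.22, 8.90 and 9.40 in CCD. The arrays did not overlap, with a 2.39-fold difference (1.26, SE 0.09, adjusted p = 3.00e-11), and its other probe set gave 1.24. Gsto2, which had a mean of 5.43 in DCT/CNT and 5.45 in CCD, was not called. The pi-class gene Gstp1 averaged 10.55 ± 0.11 in DCT/CNT and 11.24 ± 0.11 in CCD (SD, n = 12 each) and was lower without overlap (-0.57, SE 0.05). Its neighbour Gstp3 was higher (0.64, SE 0.07) but near background in both segments. Gstk1, the kappa enzyme of mitochondria and peroxisomes, was lower (-0.23, SE 0.06) but not after quantile normalization (0.09), and Gstz1, which acts as maleylacetoacetate isomerase in tyrosine breakdown, was higher (0.30, SE 0.08), both with overlapping arrays.

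Sulfotransferases included members near background in 1 segment only. Sult2a2, of the hydroxysteroid and bile acid subfamily, had 5.50, 5.81 and 6.05 in DCT/CNT, all above background, and 2.83, 3.15 and 3.30 in CCD, all near background. The arrays did not overlap (difference 2.81, SE 0.07, adjusted p = 2.17e-18). With CCD set at its background level of 4.94, the gene was 1.96-fold higher in DCT/CNT relative to the median gene. The background level was itself higher in DCT/CNT (5.47), so this value is not a lower bound. Sult2a8, a relative of Sult2a2, was called higher as well (0.65, SE 0.10) with both segments near background. A probe set may also take up transcripts of other Sult2a genes.

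Sult2b1, which encodes an enzyme known for sulfating cholesterol, showed the opposite order. It had 3.58, 4.04 and 4.46 in DCT/CNT, near background, and 5.18, 6.10 and 6.67 in CCD. The arrays did not overlap (difference -1.90, SE 0.13, adjusted p = 1.86e-11). With DCT/CNT set at its background level of 5.47, the gene was 1.37-fold higher in CCD relative to the median gene. Sult5a1 had 8.08, 8.54 and 8.94 in DCT/CNT, against 8.98, 9.70 and 10.22 in CCD, with no overlap between the arrays (difference -1.01, SE 0.09, adjusted p = 1.08e-09).

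Sult4a1, an isoform known from brain, had 5.30, 5.62 and 5.89 in DCT/CNT and 4.60, 4.74 and 4.95 in CCD. Its mean was near background in CCD and, at 5.60, close above the level of 5.47 in DCT/CNT. The arrays did not overlap (difference 0.97, SE 0.05), and the difference was 0.61 after quantile normalization and 0.58 after cyclic loess. Its other probe set gave 0.11 and was not called (adjusted p = 0.158), so the 2 probe sets differ. Sult1d1, which sulfates catecholamines in the mouse, had 9.01, 9.51 and 10.00 in DCT/CNT and 8.28, 8.93 and 9.57 in CCD. It was higher by 0.68 (SE 0.09, adjusted p = 8.25e-07, 1.60-fold) with overlapping arrays, and its other probe set gave 1.05. Sult1a1, the phenol sulfotransferase, was higher by 0.27 (SE 0.09, adjusted p = 0.0127), but did not pass the test on values as deposited (0.15).

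Of the remaining sulfotransferases, Sult1c2 was lower (-0.41, SE 0.10), and Sult6b1 (-0.01) and the near-background Sult1b1 (-0.07) were not called. Sult1b1 was called lower after quantile normalization (-0.56) and cyclic loess (-0.50). Sult1c1, Sult1e1 (the oestrogen sulfotransferase) and Sult3a1 were near background in both segments and called higher by 0.21 to 0.38. None of the 3 was called after quantile normalization (0.02, -0.08 and -0.0023), and Sult1c1 and Sult1e1 were called lower after cyclic loess.

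The glucuronosyltransferases were near background for 7 of 10 members. All 7 were called higher in DCT/CNT, by 0.19 (Ugt2a3) to 1.03 (Ugt2b1), as were 76.4% of all genes near background in both segments. Ugt2b1 had 2.89, 3.26 and 4.54 in DCT/CNT and 2.14, 2.57 and 2.86 in CCD, without overlap (SE 0.15, adjusted p = 2.05e-06). Ugt2b36 had 3.53, 3.74 and 3.90 in DCT/CNT and 2.61, 2.93 and 3.28 in CCD, also without overlap (difference 0.92, SE 0.05). Ugt2b34 (0.97), Ugt2b37 (0.53), Ugt2b5 (0.43) and Ugt2b35 (0.21) overlapped. After quantile normalization Ugt2b1 and Ugt2b36 were the called ones of these 7, and Ugt2a3 and Ugt2b35 were called lower after cyclic loess.

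The Ugt members above background in both segments were Ugt2b38, Ugt3a1 and Ugt3a2. The Ugt3a enzymes are known from human to use other sugars than glucuronic acid. Ugt3a1 had 8.46, 9.01 and 9.79 in DCT/CNT and 7.67, 8.32 and 9.31 in CCD, and was higher by 0.80 (SE 0.16, adjusted p = 8.28e-05) with overlapping arrays, while its dimmer probe set gave 0.37 (adjusted p = 0.0371). Ugt3a2 had 9.16, 10.23 and 11.17 in DCT/CNT and 9.38, 10.40 and 11.39 in CCD, and was not called (-0.09, SE 0.22, adjusted p = 0.736). Ugt2b38 had 4.55, 5.55 and 7.92 in DCT/CNT and 4.64, 6.03 and 7.61 in CCD, and was not called either (0.03, SE 0.41, adjusted p = 0.954). Both genes ranged widely among the arrays of each segment, as described below for the proximal tubule markers.

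Over the day few members passed the test. In DCT/CNT 7 of 43 were called rhythmic, where 6.57% of all genes were called, and in CCD 2, where 2.47% were. At an unadjusted p under 0.05 there were 14 members in DCT/CNT and 11 in CCD, and 24.5% and 14.2% of all genes. The difference in rhythm between the segments was called for 0 of 43 members with limma (10 at an unadjusted p under 0.05, and 8.89% of all genes), and for 0.011% of all genes, so no rhythm below is shown to belong to 1 segment. Amplitude is the fitted distance from mean to peak in log2 units. The proximal tubule marker mean also differed by time in DCT/CNT, from 7.19 at ZT8 to 8.61 at ZT12. Of its 21 markers 11 had an unadjusted p under 0.05 in DCT/CNT and 2 in CCD, and 1 and 0 were called. With the proximal tubule and thick ascending limb marker means as covariates, 4 members were called in DCT/CNT and 3 in CCD. Apart from this fit, the part of these cells in the rhythms below was not tested.

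Gstm2 had the smallest adjusted p in DCT/CNT. Its pools had 11.38 and 11.47 at ZT0, 11.55 and 11.56 at ZT4, 11.62 and 11.70 at ZT8, 11.45 and 11.41 at ZT12, 11.41 and 11.28 at ZT16, and 11.15 and 11.34 at ZT20. Both ZT8 pools lay above all others and both ZT20 pools were among the 3 lowest, with a fitted peak at ZT 6.72 (amplitude 0.19, SE 0.03, 1.29-fold from trough to peak, adjusted p = 0.00661). The CCD pools stayed between 12.49 and 12.63 (adjusted p = 0.788). Gstm2 stayed called in all 24 cases when 1 array was left out, and was not called without ZT8 or ZT20 (adjusted p = 0.086 and 0.0541).

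Gsta4 and Gstm1 moved by small steps at other phases in DCT/CNT. Gsta4 was lowest at ZT8 (11.71 and 11.70) and highest at ZT20 (12.13 and 12.10), with a fitted peak at ZT 19.4 (amplitude 0.17, SE 0.04, adjusted p = 0.0369). Gstm1 was lowest at ZT0 (11.11 and 11.10) and highest at ZT12 (11.35 and 11.52), with a fitted peak at ZT 12.3 (amplitude 0.16, SE 0.04, adjusted p = 0.0371). Leaving out 1 array ended the call of either gene in 7 of 24 cases, with the highest adjusted p at 0.102 for Gsta4 and 0.101 for Gstm1. Leaving out 1 time ended it in 6 of 6 cases for Gsta4 (at most 0.271) and in 5 for Gstm1 (at most 0.241), and none of the 3 other Gstm1 probe sets was called (adjusted p from 0.0721 to 0.818). Gstm3, near background, was called with an amplitude of 0.57 (adjusted p = 0.0334), but its pools at ZT20 were 6.35 and 4.99 and at ZT16 5.19 and 6.07, and the call ended in 6 of 24 cases when 1 array was left out, and without any of the 6 times.

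Sult1a1, which holds a TTANNTAA match in the stretch before an internal start printed above, was called in DCT/CNT. Its pools had 7.98 and 8.34 at ZT0, 8.24 and 8.29 at ZT4, 7.43 and 8.01 at ZT8, 8.62 and 8.09 at ZT12, 8.62 and 8.41 at ZT16, and 8.92 and 8.85 at ZT20. In CCD the pools had 7.86 and 7.82 at ZT0, 7.83 and 7.95 at ZT4, 7.92 and 8.20 at ZT8, 8.35 and 8.16 at ZT12, 8.47 and 8.48 at ZT16, and 8.48 and 8.54 at ZT20. Both segments were highest at ZT20, with fitted amplitudes of 0.42 (SE 0.09, peak ZT 18.8, 1.79-fold, adjusted p = 0.0251) in DCT/CNT and 0.34 (peak ZT 16.1, adjusted p = 0.126) in CCD, and the difference in rhythm was not called (adjusted p = 0.679). The DCT/CNT call ended in 3 of 24 cases when 1 array was left out, and without ZT8, ZT16 or ZT20.

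Sult1c1 and Ugt2b34 were called in DCT/CNT with means near background. Sult1c1 was highest at ZT16 (3.17 and 3.18) and its amplitude was 0.25 (peak ZT 14.9, adjusted p = 0.0218). That call ended in 3 of 24 cases when 1 array was left out, without ZT0, ZT4 or ZT16, and after quantile normalization (adjusted p = 0.0741). Ugt2b34 had 3.71 and 2.97 at ZT0, 4.06 and 4.04 at ZT4, 3.79 and 3.60 at ZT8, 6.80 and 6.83 at ZT12, 6.14 and 4.10 at ZT16, and 3.50 and 5.82 at ZT20. Both ZT12 pools were above background with 1 pool each at ZT16 and ZT20, and the fitted amplitude was 1.31 (SE 0.32, peak ZT 13.8, adjusted p = 0.0399). The call ended in 6 of 24 cases when 1 array was left out and without ZT0, ZT4 or ZT12 (amplitude 0.76 without ZT12), and the other probe set was not called (amplitude 0.44, adjusted p = 0.139). With the proximal tubule and thick ascending limb marker means, centred within each segment, as covariates its amplitude was 0.92 and it was not called (adjusted p = 0.272), and the pools at ZT12 were also those with the highest proximal tubule marker means in DCT/CNT (8.56 and 8.65).

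In CCD the called members were Gsta2 and Sult5a1. Gsta2 had 9.92 and 9.81 at ZT0, 9.50 and 9.63 at ZT4, 9.48 and 8.94 at ZT8, 9.34 and 8.77 at ZT12, 9.24 and 9.40 at ZT16, and 10.01 and 9.60 at ZT20 (amplitude 0.42, peak ZT 23.1, 1.80-fold, adjusted p = 0.0193). In DCT/CNT its amplitude was 0.14 (adjusted p = 0.494), and the difference in rhythm was not called (adjusted p = 0.548). Sult5a1 had 10.03 and 9.55 at ZT0, 9.47 and 9.32 at ZT4, 9.16 and 9.35 at ZT8, 8.98 and 9.86 at ZT12, 9.90 and 10.12 at ZT16, and 10.10 and 10.22 at ZT20 in CCD (amplitude 0.47, peak ZT 19.4, 1.92-fold, adjusted p = 0.0143). In DCT/CNT it was not called (amplitude 0.26, peak ZT 21.5, adjusted p = 0.144). Leaving out 1 array ended the call of Gsta2 in 3 of 24 cases (adjusted p at most 0.0841) and that of Sult5a1 in 1 (0.0506). Leaving out 1 time ended it in 5 of 6 cases for Gsta2 (at most 0.167) and in 4 for Sult5a1 (at most 0.138).

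**Figure D2:**
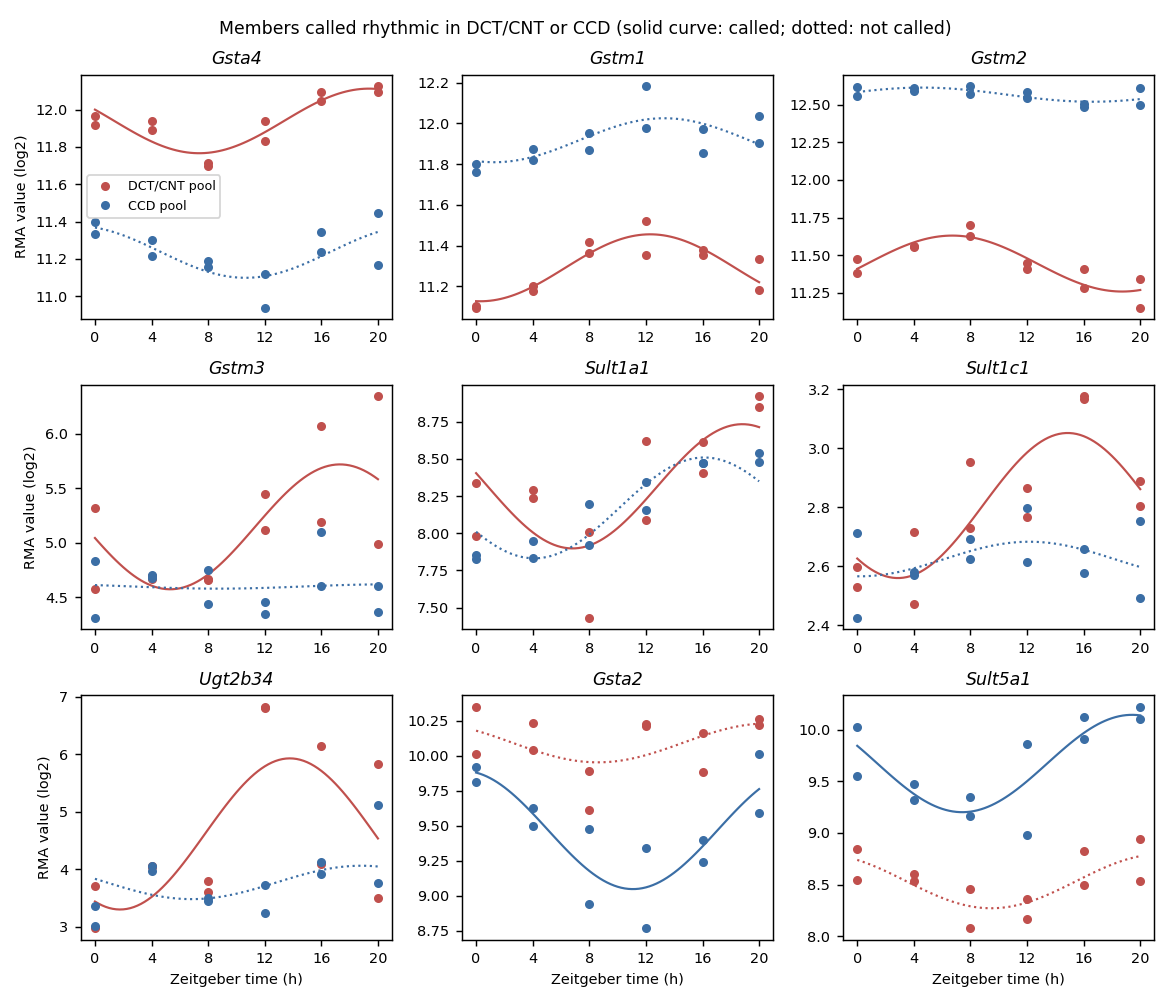
RMA values (log2, y axis) of the 9 members called rhythmic in either segment against zeitgeber time (hours), 1 point per pool, DCT/CNT in red and CCD in blue, with the fitted 24 h curve solid where called and dotted where not. Gstm2 peaks in the light phase in DCT/CNT, Sult1a1 is highest at ZT20 in both segments, and the Ugt2b34 points of DCT/CNT at ZT12 (6.80 and 6.83) stand above the rest.

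Some members followed the proximal tubule markers from array to array. Pearson's r with the mean of the 21 markers was computed for the 43 members within the 12 arrays of each segment, 86 correlations in all, with permutation p-values adjusted over them. In DCT/CNT 6 members passed (5 positive, 1 negative) and in CCD 8 (7 positive, 1 negative), and Ugt3a2, Ugt2b38, Sult1d1 and Gsto1 passed with a positive r in both. Correlations with the markers were not computed for other genes, so these counts have no share over all genes beside them. Whether they are particular to the families was not tested. The arrays of a segment also differ by time of day, and in a dissected pool fewer cells of a type and less RNA per cell cannot be told apart.

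Ugt3a2 lay closest to the markers. In DCT/CNT r was 0.94 (rho 0.90, permutation p = 6e-05, adjusted p = 0.00129) and 0.93 without the 2 arrays farthest from the median, and in CCD r was 0.94 (rho 0.90, permutation p = 1e-05, the smallest the permutations can give, adjusted p = 0.00043) and 0.90 without the 2 farthest. Its pools of 1 group lay far apart, with 10.82 and 9.23 at ZT0 in DCT/CNT and 10.97 and 9.38 at ZT8 in CCD. Ugt2b38 had r of 0.82 in DCT/CNT (rho 0.89, permutation p = 0.00145, adjusted p = 0.0139) and 0.96 in CCD (rho 0.97, permutation p = 1e-05, adjusted p = 0.00043), and 0.79 and 0.97 without the 2 farthest arrays. Its pools differed most at ZT0 in DCT/CNT (7.92 and 5.11) and at ZT8 in CCD (7.61 and 4.64).

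Sult1d1 had r of 0.86 in DCT/CNT (rho 0.78, permutation p = 0.00047, adjusted p = 0.00808) and 0.85 in CCD (rho 0.73, permutation p = 0.00063, adjusted p = 0.00903). Gsto1 had r of 0.80 in DCT/CNT (rho 0.76, permutation p = 0.00145, adjusted p = 0.0139) and 0.72 in CCD (rho 0.69, permutation p = 0.00414, adjusted p = 0.0265), and the CCD value fell to 0.43 without the 2 farthest arrays, so it rests on those. The adjusted p-values of rho for Sult1d1 and Gsto1 were between 0.0621 and 0.0935. The part of the marker levels in the segment differences of these members was not tested, and the marker means covered like ranges in both segments.

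The other members that passed did so in 1 segment. In CCD these were Ugt3a1 (r = 0.92), Gstz1 (0.80), Gstm1 (0.74, and 0.49 without the 2 farthest arrays, so that it rests on those) and Sult1e1 (-0.73). In DCT/CNT they were Sult3a1 (0.74) and Gstm7 (-0.77), and Ugt2b34 had r of 0.73 with an adjusted p of 0.0524, and 0.43 without the 2 farthest arrays. Whether these correlations differ between the segments was not tested. Of the 21 proximal tubule markers themselves, 2 were called higher, 4 lower and 15 not called, with differences from -1.01 to 0.94. Their pools lay far apart (SE 0.20 for Lrp2 and 0.45 for Slc5a12), so a marker not called is not shown to be equal.

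**Figure D3:**
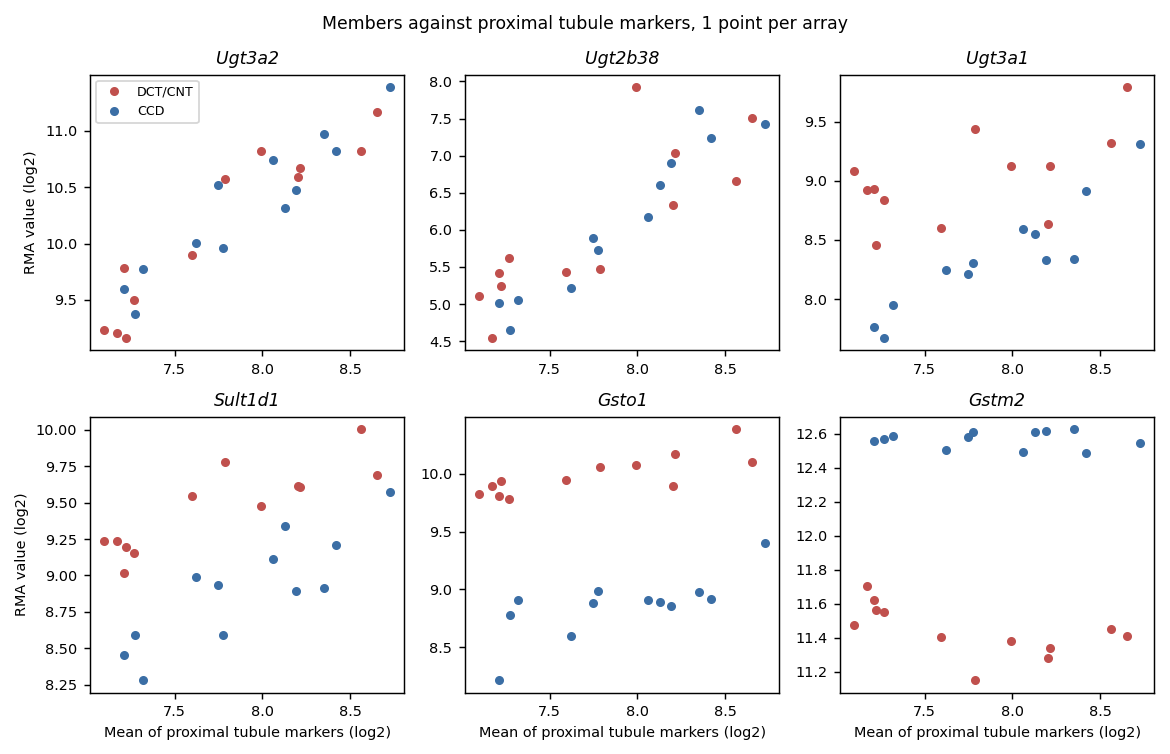
RMA value (log2, y axis) of 6 members against the mean of 21 proximal tubule markers (log2, x axis), 1 point per array, DCT/CNT in red and CCD in blue. Ugt3a2 and Ugt2b38 climb along 1 line in both segments. Most DCT/CNT points of Sult1d1, Gsto1 and Ugt3a1 lie above CCD points of like marker mean, a comparison that was not tested. Gstm2 is shown as a member with separate levels.

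Genes that supply or recycle the cosubstrates were taken from lists, read against the 38.5% higher and 38.9% lower of all genes. Of 21 measured genes of glutathione supply and turnover 4 were higher and 9 lower in DCT/CNT (median -0.14), and 8 and 5 after quantile normalization (median 0.08). Among them were Gpx3, the secreted glutathione peroxidase (1.54), Ggt5 (0.64), and glutathione reductase, Gsr (-0.50). Gclc, the catalytic subunit of the rate-limiting step of glutathione synthesis, was called rhythmic in DCT/CNT (amplitude 0.19, peak ZT 11.9, adjusted p = 0.0135). Oplah, the 5-oxoprolinase that recycles glutamate, was called in DCT/CNT (amplitude 0.23, peak ZT 19.0) and in CCD (0.31, peak ZT 17.9), and Ggct in CCD (0.29, peak ZT 9.4). Another list held 14 genes, namely microsomal and other glutathione transferases or relatives and the unrelated Faah, which encodes a fatty acid amide hydrolase. Of these 14, 5 were higher and 6 lower (median 0.19), and 6 and 7 after quantile normalization (median -0.02). Mgst1 (-0.66), Clic1 (-0.95) and Faah (-1.10) were lower. Faah was also called rhythmic in DCT/CNT (amplitude 0.30, peak ZT 1.9).

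For glucuronidation, 2 of 14 genes of UDP-glucuronate supply, glucuronide cleavage and related sugar transfer were higher and 8 lower (median -0.20), and 3 and 6 after quantile normalization (median -0.0025). Ugt8a, which makes galactosylceramide, was lower by the largest step of this list (-2.52, means 7.43 in DCT/CNT and 10.08 in CCD), followed by Ugcg, glucosylceramide synthase (-1.33), and Pgm1 (-0.53). Ugt8a and Uggt1 were called rhythmic in DCT/CNT, with amplitudes of 0.29 and 0.30. For sulfation, 2 of 18 genes were higher and 8 lower (median -0.13), and 4 and 7 after quantile normalization (median -0.06), with the anion transporter genes Slc26a7 (-2.36) and Slc26a2 (-1.58) and the sulfatase-modifying Sumf1 (-0.35) lower. None of the sulfate genes was called rhythmic with limma in either segment (7 and 1 at an unadjusted p under 0.05).

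Of 21 measured NRF2 pathway genes, 3 were higher and 15 lower in DCT/CNT (median -0.28), but 5 higher and 7 lower after quantile normalization (median -0.06). Lower under both were Ephx1, microsomal epoxide hydrolase (-1.23), Txn1 (-0.43) and Cbr3 (-0.95). Ephx1 was called rhythmic in DCT/CNT (amplitude 0.20, peak ZT 12.1, adjusted p = 0.0474) and in CCD (0.26, peak ZT 11.1, adjusted p = 0.0189). Gclc of this list is given above.

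Of 14 xenobiotic receptors and PAR bZIP factors 4 were higher and 6 lower (median -0.18), and 4 and 1 after quantile normalization (median -0.07). Dbp (amplitude 2.39, peak ZT 10.5 in DCT/CNT and 2.38, peak ZT 10.0 in CCD), Tef (0.95, peak ZT 13.1 and 0.90, peak ZT 12.7) and their repressor counterpart Nfil3 (1.18, peak ZT 22.3 and 1.13, peak ZT 22.2) were called in both segments. Hlf was higher in DCT/CNT by 1.17, Nr1i2 by 0.43 though near background, and Arnt was lower (-0.38), with Nr1i2 and Arnt not called after quantile normalization. Of the 6 members with TTANNTAA in a promoter, 4 were near background in both segments (Ugt2a3, Ugt2b1, Ugt2b35 and Ugt2b36). Sult1a1 was called in DCT/CNT, and Gsta3 was not called in either segment (adjusted p = 0.296 in DCT/CNT and 0.29 in CCD). Of the matches of these 6, only that of Ugt2b1 holds the narrower TTAYGTAA.

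Of 19 transporters of conjugates and organic anions 4 were higher and 5 lower (median 0.04), and 3 and 8 after quantile normalization (median -0.19), with Slco4c1 (-1.25), Slco3a1 (-1.16) and Slco1a4 (-1.45) lower in DCT/CNT. Slco2a1, the prostaglandin transporter (amplitude 0.29), Abcc5 (0.27) and the near-background Abcc6 (0.25) were called rhythmic in DCT/CNT, with peaks between ZT 14.9 and ZT 17.8. In CCD Slc22a7, which transports organic anions, was called (amplitude 0.69, peak ZT 14.8, adjusted p = 0.0466).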

How the data were processed

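Per the labels' protocols, 10 ng of total RNA per pool was amplified and biotin-labelled. The authors' deposited table holds log2 values of 45101 probe sets made with RMA, per the submitters' processing notes, which give no version. Of these, 34958 carried 1 gene symbol, 932 several and 9211 none in the platform annotation, 34754 were matched to RefSeq (GRCm38.p6) by gene number, and the brightest probe set was kept for each of 18194 genes. Precision is set by the number of arrays, which give no read depth.

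From the deposited values a cosinor model with a separate mean, cosine and sine (24 h) per segment was fitted to all genes with limma 3.58.1 in R 4.3.3 (18 residual degrees of freedom), and the difference of the median gene was subtracted before the segment test. P-values were adjusted by Benjamini-Hochberg over all genes and called under 0.05. Correlations used 100000 permutations (two-sided, Python 3.11.15). The fit was tested on simulated data. Members and gene lists were chosen with earlier results of these data known. Named were members called rhythmic, per family up to 5 in each direction with the largest called difference without overlap, the 3 with the highest mean, those whose probe sets disagree, and per list up to 3 genes by smallest adjusted p. Other members are given to account for all 43. Other scalings, filters, probe set choices, models and omissions of arrays and times were tried. Deviations of pools of the same number from their group mean had correlations from -0.03 to 0.09 across segments. Such values cannot show whether the segments shared animals.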

Additional observations from a re-analysis of the deposited data

How the results depend on the processing

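The number of members called between the segments was 36, 34 to 37 when 1 array was left out (22 to 23 higher, 12 to 15 lower), and 20 with dim genes left out, where 27 members could be tested. Higher members fell to 13 by quantile normalization, 14 by cyclic loess and 10 with dim genes left out; the split of higher and lower was 18 and 15 on values as deposited, 13 and 13 by quantile normalization and 14 and 17 by cyclic loess, against 22 and 14. The cause was not tested.

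Rhythmic members in DCT/CNT numbered 4 instead of 7 with dim genes left out, with the mean of all probe sets, with array weights, with marker covariates and, chosen after seeing the data, without ZT0 pool 1 and ZT16 pool 1; 3 with group means; 0 with each segment alone; and 2 without ZT0, ZT4 or ZT16 and 3 without ZT8, ZT12 or ZT20, where fewer arrays enter. Leaving out 1 array gave 3 to 7. In CCD there were 4 instead of 2 by quantile normalization and with the mean of probe sets, 6 with array weights, 0 with group means, 1 without ZT0, ZT8, ZT12 or ZT16, 0 without ZT4 or ZT20, and 1 to 4 without 1 array. Over all genes, rhythmic genes in DCT/CNT numbered 1195, and 450 with group means, 226 with each segment alone, 788 with array weights and 691 with marker covariates; in CCD 449, 117, 456, 846 and 335. A rhythm difference was called for 0 members in every alternative run with limma.

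Called in the opposite direction were Gstt3 by quantile normalization (0.21), and Gstt3 (0.24), Sult1c1 (-0.11), Sult1e1 (-0.21), Ugt2a3 (-0.22) and Ugt2b35 (-0.21) by cyclic loess. Among named members not called, the sign of 2 changed. Ugt2b38 gave -0.10 on values as deposited, -0.11 by quantile normalization, -0.16 by cyclic loess, -0.0027 with the mean of probe sets, -0.10, -0.0174 and -0.24 without ZT0, ZT4 and ZT12, -0.0719 without the 2 pools above, and -0.19 to 0.20 without 1 array. Ugt3a2 gave 0.22 by quantile normalization, 0.23 by cyclic loess, 0.10 with dim genes left out and -0.19 to 0.0109 without 1 array.

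With the replicate block for pairs of a time across segments, 22 members were higher and 13 lower, and 7 and 3 were rhythmic in DCT/CNT and CCD; with pool number as a term over all groups 36 members were called, and 7 and 2 were rhythmic. Whether the numbers pair the samples is not known from the labels.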

Other observations

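Probe sets that name several genes of these families were not used for the members, and their values are given here as means with the lowest and highest of 12 arrays. A probe set shared by Gm3776, Gsta2 and Gsta1 had 11.54 (11.19 to 11.75) in DCT/CNT and 10.84 (10.37 to 11.33) in CCD, a difference of 0.83 relative to the median gene, next to 0.75 for the Gsta2 probe set. A probe set shared by Ugt2a2 and Ugt2a1 had 4.13 (3.88 to 4.76) in DCT/CNT and 3.57 (3.18 to 3.91) in CCD, near background in both.

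The Ugt1a genes, which encode the bilirubin and phenol glucuronosyltransferases and share their last exons, were measured together by 3 probe sets, each naming 8 genes starting with Ugt1a1. These had means of 8.11, 9.32 and 8.22 in DCT/CNT and 8.08, 9.40 and 8.44 in CCD. Relative to the median gene the differences were 0.15, 0.04 and -0.10.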
